A study of Mus musculus with 12 samples.

Results

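The 10 genes described here are neuronal and neural genes measured in mouse embryonic stem cells after knockdown of Krr1, whose protein helps to assemble the small ribosomal subunit. They are the homeobox gene Vax2, the membrane protein gene Islr2, the tau gene Mapt, the postsynaptic scaffold gene Dlgap3, the growth factor receptor gene Gfra2, the tubulin gene Tubb3, the semaphorin signalling gene Crmp1, the intermediate filament gene Nes, the proneural factor gene Neurod1 and the stathmin gene Stmn2. All 10 were found by symbol among the 23420 genes of both count tables, and all 10 passed the filter on low counts in RNA and in footprints. The genes were chosen by their differences between knockdown and control cells in these same libraries, so those differences are given as a description, with no p-value. Of the 10, 9 differed between the groups as the choice implies, and Stmn2 did not, since its RNA levels overlapped.

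The knockdown group was R1 cells, a mouse embryonic stem cell line, transfected for 48 h with siRNAs against Krr1, and its lysates are called siKrr1 A, siKrr1 C and siKrr1 D. The control group was R1 cells treated in parallel, with the libraries siGFP, siNC and Lipo, and the name Lipo states no siRNA although the labels count 3 control siRNAs. All cells were grown on gelatin in serum medium with LIF, the cytokine that keeps mouse stem cells undifferentiated. Each lysate was used for RNA-seq and for ribosome profiling, a method that reads the stretches of mRNA protected by ribosomes (footprints), giving 12 libraries with 3 per group and assay. The labels do not say whether the samples were separate cultures, so errors and p-values cover only the spread between these samples.

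Counts on genes ranged from 31318772 to 39670139 per RNA library and from 21615934 to 28911254 per footprint library. The knockdown lysates A, C and D held 21.7%, 37.3% and 41.5% of the mean control level of Krr1 RNA and 18.9%, 37.5% and 31.4% of that of its footprints. The stem cell markers were abundant, with Pou5f1 at 2670 CPM (counts scaled by the library's total on genes) in knockdown RNA and 2930 CPM in control RNA and Sox2 at 599 and 587 CPM, and the 8 markers on that list summed to 6360 to 7630 CPM in knockdown RNA and 7940 to 8060 CPM in control RNA. Markers of a neural lineage were far less abundant than the stem cell markers. In every RNA library 5 of 8 neural progenitor markers and 4 of 10 neuron markers stayed under 1 CPM, among them Dcx, Snap25 and Olig2. The most abundant neuron markers were Nefl, at 21.9 CPM in knockdown RNA and 15.3 CPM in control RNA, and Gap43, at 18.9 and 17.9 CPM. The most abundant progenitor marker was Sox1, at 3.94 CPM in knockdown RNA and 4.53 CPM in control RNA.

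Neuronal genes are for the most part silent or weakly read outside the nervous system, where the repressor REST and its corepressors hold many of them down. Stem cells released from LIF can enter the neural lineage, in which Nes marks progenitors, proneural factors such as Neurod1 drive cells out of the cycle, and Tubb3, Mapt, Crmp1 and Stmn2 then serve the microtubules and growth cones of young neurons. Several of these genes are nonetheless transcribed in undifferentiated stem cells, which is the setting measured here.

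Promoter sequence was at hand for 6 of the 10 genes (RefSeq, GRCm38.p6, the build also named mm10), and 4 are shown because they set a pair that was lower in knockdown cells beside a pair that was higher. Each line runs in the direction of transcription from 250 bases before to 50 bases after the annotated start. Capitals mark 5 motifs, each searched on both strands. They are the GC box, spelled GGGCGG, and the box named for its letters CCAAT, both common in promoters of broadly active genes. The others are the classical TATA box, searched as TATAAA, the E-box of helix-loop-helix proteins, searched as CANNTG, and the octamer bound by POU factors, searched as ATGCAAAT.
Islr2, lower, chr9:58204270-58204569, minus strand: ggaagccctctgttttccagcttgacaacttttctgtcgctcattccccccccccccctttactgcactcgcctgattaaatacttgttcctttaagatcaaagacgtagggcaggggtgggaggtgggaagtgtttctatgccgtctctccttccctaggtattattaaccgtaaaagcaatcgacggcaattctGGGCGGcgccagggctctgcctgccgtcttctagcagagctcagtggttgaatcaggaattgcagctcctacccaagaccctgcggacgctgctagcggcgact
Tubb3, lower, chr8:123411303-123411602, plus strand: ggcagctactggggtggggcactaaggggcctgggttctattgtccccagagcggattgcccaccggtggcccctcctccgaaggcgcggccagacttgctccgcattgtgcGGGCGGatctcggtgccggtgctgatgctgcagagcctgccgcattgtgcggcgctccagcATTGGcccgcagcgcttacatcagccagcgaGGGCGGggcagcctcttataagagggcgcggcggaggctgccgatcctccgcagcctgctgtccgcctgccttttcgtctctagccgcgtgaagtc
Crmp1, higher, chr5:37241808-37242107, plus strand: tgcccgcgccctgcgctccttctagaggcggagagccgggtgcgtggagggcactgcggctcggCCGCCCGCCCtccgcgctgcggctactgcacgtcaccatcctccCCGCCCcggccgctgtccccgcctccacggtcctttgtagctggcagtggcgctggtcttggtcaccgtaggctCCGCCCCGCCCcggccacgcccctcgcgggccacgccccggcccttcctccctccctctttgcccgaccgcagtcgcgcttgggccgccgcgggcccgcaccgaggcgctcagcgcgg
Neurod1, higher, chr2:79456587-79456886, minus strand: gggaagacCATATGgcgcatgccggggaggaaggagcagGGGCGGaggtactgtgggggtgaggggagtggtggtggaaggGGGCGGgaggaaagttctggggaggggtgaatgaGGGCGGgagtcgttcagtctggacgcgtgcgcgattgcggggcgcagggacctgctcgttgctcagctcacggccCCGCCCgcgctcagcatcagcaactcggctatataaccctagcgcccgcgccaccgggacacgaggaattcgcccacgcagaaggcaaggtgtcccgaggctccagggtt

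A GC box was present in 5 of the 6 promoters, against 35.7% of the 32851 mouse promoters of the same length. It occurred 5 times in Crmp1, counting overlapping matches, 4 times in Neurod1, 2 times each in Tubb3 and Nes and once in Islr2, and these letters were not found in the Dlgap3 window, which lies 4575 bases inside the annotated gene. The Crmp1 promoter had 77.0% G and C, a share that 97.8% of promoters do not exceed, and Islr2 had 54.0%, close to the median of 52.7%. A CCAAT box was found in Tubb3, as in 37.4% of all promoters. An E-box, the motif that proneural factors bind, was found 3 times in Dlgap3, once in Neurod1 and in 72.3% of all promoters. No window held the letters TATAAA, which 13.6% of promoters hold, or those of the octamer, which 1.74% hold. Other spellings of a TATA box, such as the letters TATATAA in the Neurod1 window, were not searched. Of the arms of the REST element, the left one (AGCACC) was found in Tubb3 and in 16.2% of promoters, and the right one (GGACAG) in Tubb3, Crmp1 and Dlgap3 and in 22.2% of promoters. GC boxes were thus present both in genes that were lower and in genes that were higher.

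In RNA and in footprints alike, 6 of the 10 genes were lower and 3 higher in knockdown cells among the genes that edgeR's quasi-likelihood test, run over all genes, listed at a Benjamini-Hochberg adjusted p under 0.05. Over all genes this test called 2.69% of 14038 higher and 2.11% lower in RNA, and 3.39% of 13287 higher and 2.68% lower in footprints. The tally of the 10 depended on the control libraries. In RNA it was 1 higher and 4 lower without Lipo, 2 and 4 without siGFP or siNC, and 3 and 5 without siKrr1 D. In footprints it was 1 higher and 5 lower without Lipo, 2 and 5 without siGFP or siNC, and 3 and 5 without siKrr1 D. The groups did not overlap for 9 of the 10 genes in RNA and for all 10 in footprints, where the share over all genes was 13.6% higher and 13.4% lower in RNA and 14.3% higher and 13.6% lower in footprints. All these counts follow from how the genes were chosen, so they are no test of the 10 and nothing is read from them.

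**Figure D1:**
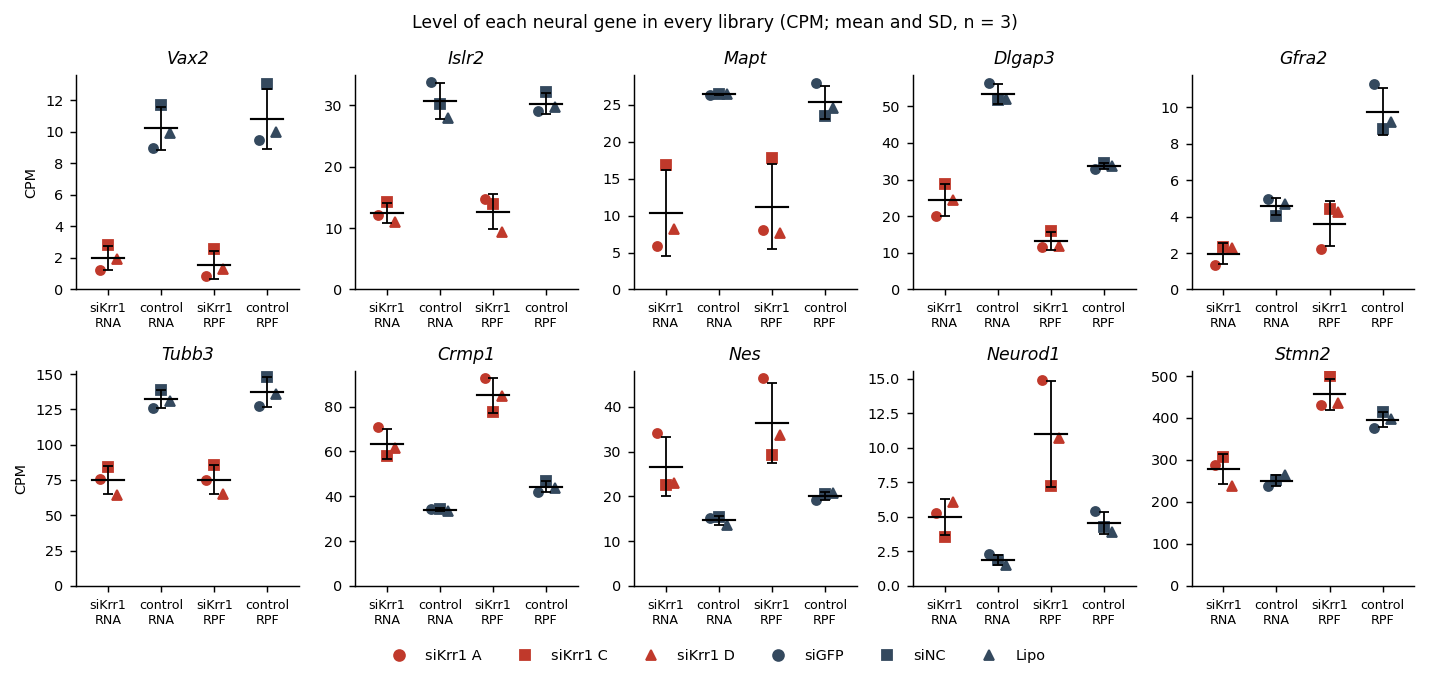
Level of each gene in every library, in CPM on axes that start at 0, with siKrr1 libraries in red and control libraries in dark blue, RNA on the left and ribosome footprints (RPF) on the right of each panel. Horizontal lines are means and bars are SD (n = 3). Red points lie below blue points for Vax2, Islr2, Mapt, Dlgap3, Gfra2 and Tubb3, above them for Crmp1, Nes and Neurod1, and among or just above them for Stmn2.

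Vax2 encodes a homeodomain regulator of ventral eye development (chromosome 6, 83711239 to 83738313) and had the deepest fall of the 10 genes. Vax2 RNA was at 1.25, 2.81 and 1.93 CPM in siKrr1 A, C and D, against 8.97, 11.7 and 9.92 CPM in siGFP, siNC and Lipo. These levels rest on 39, 105 and 73 counts in the knockdown libraries and 342, 455 and 352 in the controls. The highest knockdown library lay well under the lowest control. Vax2 footprints were at 0.876, 2.56 and 1.29 CPM in siKrr1 A, C and D and at 9.44, 13 and 9.95 CPM in siGFP, siNC and Lipo. The RNA mean was 2.00 ± 0.783 CPM in knockdown cells and 10.2 ± 1.36 CPM in control cells (SD, n = 3 each), 19.6% of the control level, and the footprint mean was 14.6% of it. On the log2 scale the difference was -2.34 ± 0.24 (SE) in RNA and -2.78 ± 0.29 in footprints. It ranked 3 from the bottom among all genes tested in RNA and 1 in footprints.

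Vax2os, an lncRNA that overlaps Vax2 by 963 bases, was lower as well, at 1.71 ± 0.962 CPM in knockdown RNA and 8.13 ± 2.13 CPM in control RNA (SD, n = 3 each). Its log2 fold change was -2.24 ± 0.33 (edgeR adjusted p = 0.00672), and the call held with each library left out, with adjusted p from 0.000373 to 0.0329 in edgeR. In Vax2os reads from the footprint libraries the log2 fold change was -1.73 ± 0.44 (edgeR adjusted p = 0.0438), but with a library left out the edgeR adjusted p ran from 0.0206 to 0.175, the highest without siNC. The strand setting of the counting is not given in the sources used here, so reads of the 2 genes may be mixed where they overlap. Vax2os was chosen after its values were seen. Among 16 relatives and eye regulators, including Vax1, Pax6, Rax and Mitf, 6 were tested in RNA and 5 in footprints and none was called by edgeR, the most abundant being Bmp4 at 107 CPM in knockdown RNA and 126 CPM in control RNA, and the median log2 fold change was 0.06 in RNA. Vax1 itself was at 0.0940 CPM in knockdown RNA and 0.0534 CPM in control RNA, and Six3 had no count in RNA.

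Islr2 encodes a membrane protein with leucine-rich repeats that takes part in axon guidance (chromosome 9, 58196297 to 58204319). Islr2 RNA was at 12.1, 14.3 and 11 CPM in siKrr1 A, C and D and at 33.8, 30.3 and 28.0 CPM in siGFP, siNC and Lipo. Islr2 footprints were at 14.7, 14 and 9.41 CPM in siKrr1 A, C and D, against 29.1, 32.2 and 29.7 CPM in the same controls. The highest knockdown library was under the lowest control in both assays, and siKrr1 D was the lowest of all. The RNA mean was 40.5% and the footprint mean 41.8% of the control mean, with log2 differences of -1.30 ± 0.12 and -1.27 ± 0.14 (SE). Of its relatives, Islr was at 0.0177 CPM in knockdown RNA and 0.0632 CPM in control RNA, and 4 of the other leucine-rich repeat genes on the list were tested, none of them called (edgeR; Flrt3, the most abundant, at -0.01 ± 0.16, adjusted p = 0.97).

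The tau gene Mapt (chromosome 11, 104229409 to 104332090), whose protein stabilises axonal microtubules, varied more among the knockdown RNA libraries than any other of the 10. In RNA it was at 5.88, 16.9 and 8.15 CPM in siKrr1 A, C and D, against 26.3, 26.4 and 26.5 CPM in siGFP, siNC and Lipo. The controls were nearly equal, with a spread of 0.314% of their mean, while that of the knockdown libraries was 56.5% (SD as a share of the mean). Mapt footprints were at 8.07, 17.8 and 7.62 CPM in siKrr1 A, C and D and at 27.9, 23.5 and 24.6 CPM in the controls, and siKrr1 C was again the nearest to them. The log2 difference was -1.35 ± 0.28 in RNA and -1.18 ± 0.26 in footprints (SE). Without siKrr1 C it was -1.90 and -1.69.

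Other microtubule-associated protein genes moved less, and Mapt was chosen by its change. Of 7 that were tested, 1 was called in RNA and 2 in footprints, all lower, with a median log2 fold change of -0.28 in RNA and -0.15 in footprints, beside a median of -0.001 over all genes in RNA and 0.007 in footprints. Map1a, a large protein of axons and dendrites, was at 28.8 CPM in knockdown RNA and 44.9 CPM in control RNA, a log2 fold change of -0.64 ± 0.11 (edgeR adjusted p = 0.0106), and the edgeR adjusted p was 0.00519 to 0.0677 with a library left out, the highest without siGFP. Its footprints fell by 0.65 (edgeR adjusted p = 0.004, and 0.00261 to 0.0306 with a library left out). Map1b footprints differed by -0.21 ± 0.05 (edgeR adjusted p = 0.0435, and 0.0381 to 0.192 with a library left out, the highest without Lipo). Map2, the dendritic relative of tau, was at 2.48 CPM in knockdown RNA and 1.94 CPM in control RNA, with a log2 fold change of 0.36 ± 0.24 (edgeR adjusted p = 0.439).

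Tubb3, the neuronal class of beta-tubulin (chromosome 8, 123411553 to 123422015), was among the more abundant of the 10. Tubb3 RNA was at 76.0, 84.3 and 64.4 CPM in siKrr1 A, C and D and at 126, 139 and 131 CPM in siGFP, siNC and Lipo. Tubb3 footprints were at 74.9, 85.7 and 64.8 CPM in siKrr1 A, C and D, against 127, 148 and 136 CPM in the controls. The highest knockdown value was below the lowest control value in both assays. The mean was 56.7% of the control in RNA and 54.9% in footprints, with log2 differences of -0.82 ± 0.10 and -0.87 ± 0.10 (SE).

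Several other tubulin genes fell by smaller amounts, and Tubb3 was chosen by its change. Of 11 relatives tested in RNA 4 were lower and 0 higher, and of 12 tested in footprints 4 were lower and 0 higher, beside 2.11% lower over all genes in RNA and 2.68% in footprints, with median log2 fold changes of -0.21 and -0.18. Tuba4a was at 193 CPM in knockdown RNA and 295 CPM in control RNA, a log2 fold change of -0.61 ± 0.09 (edgeR adjusted p = 0.0081, and 0.00201 to 0.0464 with a library left out). Its footprints changed by -0.42 ± 0.07 (edgeR adjusted p = 0.00986, and 0.00484 to 0.072, the highest without Lipo). Tuba1a (-0.40 ± 0.09), Tubb2b (-0.47 ± 0.11) and Tubb2a (-0.42 ± 0.10) were called in RNA, but with a library left out the edgeR adjusted p reached 0.142 for Tuba1a without siNC, 0.154 for Tubb2b without Lipo and 0.152 for Tubb2a without siNC, from lowest values of 0.0197, 0.0133 and 0.0376. In footprints the remaining calls were Tubb2b, Tuba1a and Tubb4b, whose edgeR adjusted p reached 0.145 without siNC, 0.136 without siGFP and 0.196 without Lipo, from lowest values of 0.00552, 0.000163 and 0.0178. Tubb5, the main beta-tubulin of dividing cells, was at 1990 CPM in knockdown RNA and 2300 CPM in control RNA and was not called (-0.21 ± 0.07, edgeR adjusted p = 0.129), and Tubb6 stood at 0.27 ± 0.10 (edgeR adjusted p = 0.156). Tubulin genes resemble each other in sequence, so reads that match several of them may be missing from counts of unique alignments.

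Dlgap3, a scaffold protein of excitatory synapses (chromosome 4, 127168305 to 127237022), was at 20.1, 28.8 and 24.3 CPM in RNA of siKrr1 A, C and D and at 56.4, 51.6 and 52.0 CPM in siGFP, siNC and Lipo. Its footprints were at 11.7, 16 and 12 CPM in siKrr1 A, C and D, against 33.0, 34.5 and 33.7 CPM in the controls. In each assay every knockdown library was under every control. The log2 difference was -1.13 ± 0.12 in RNA and -1.35 ± 0.12 in footprints (SE), which is 45.7% and 39.2% of the control mean. Of its relatives, Dlgap4 and Dlgap5 stood at -0.04 ± 0.09 and 0.03 ± 0.09 in RNA (edgeR adjusted p = 0.846 and 0.894). Dlgap1, a low-level relative at 0.754 CPM in knockdown RNA and 1.61 CPM in control RNA, was at -1.08 ± 0.36 (edgeR adjusted p = 0.115), and none of the relatives was called in either assay. Among 40 synapse genes 29 were tested in RNA, where none was called and the most abundant were Agrn (0.24 ± 0.12, edgeR adjusted p = 0.276) and Dlg1. In footprints the vesicle protein gene Vamp2 was the called one of 32, at 0.58 ± 0.14 (edgeR adjusted p = 0.0364, and 0.0482 to 0.145 with a library left out, the highest without siNC). Vamp2 footprints were at 7.71 CPM in knockdown cells and 5.17 CPM in control cells. Vamp2 RNA did not rise (-0.14 ± 0.20, edgeR adjusted p = 0.748).

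Gfra2 is the receptor subunit that binds neurturin and signals through Ret (chromosome 14, 70890107 to 70979840), and it was one of the weakest signals. Its RNA was at 1.32, 2.31 and 2.30 CPM in siKrr1 A, C and D and at 4.96, 4.05 and 4.71 CPM in siGFP, siNC and Lipo, from 41, 86 and 87 counts in knockdown libraries and 189, 158 and 167 in controls. Gfra2 footprints were at 2.21, 4.4 and 4.23 CPM in siKrr1 A, C and D, against 11.3, 8.82 and 9.22 CPM in the controls, with siKrr1 A the lowest in both assays. The log2 difference was -1.20 ± 0.23 in RNA and -1.42 ± 0.22 in footprints (SE). With a library left out it ran from -1.31 to -0.99 in RNA and from -1.57 to -1.18 in footprints. No other gene of the pathway was called: of 12 other genes of the list 8 were tested in RNA and 7 in footprints by edgeR, the co-receptor Ret being at 1.81 CPM in knockdown RNA and 1.89 CPM in control RNA (-0.07 ± 0.25, adjusted p = 0.911). Its ligand Nrtn was at 9.48 CPM in knockdown RNA and 9.05 CPM in control RNA, and Pspn and Gfral had no count in RNA or footprints.

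Crmp1, a mediator of semaphorin signals to the cytoskeleton (chromosome 5, 37242058 to 37292163), was higher in knockdown cells with little spread. Its RNA was at 70.8, 57.9 and 61.4 CPM in siKrr1 A, C and D and at 34.5, 34.2 and 33.6 CPM in siGFP, siNC and Lipo. Crmp1 footprints were at 93.0, 77.5 and 84.6 CPM in siKrr1 A, C and D, against 42.1, 46.9 and 43.9 CPM in the controls. The lowest knockdown library was well above the highest control in each assay. The mean was 1.86 times the control in RNA and 1.92 times in footprints, with log2 differences of 0.89 ± 0.09 and 0.94 ± 0.08 (SE). The 4 other genes of this family were tested in both assays and none was called by edgeR. Dpysl2 stood at 0.03 ± 0.12 in RNA (adjusted p = 0.903), Dpysl3 at 0.19 ± 0.13, Dpysl5 at -0.32 ± 0.18 and Dpysl4 at -0.56 ± 0.19 (adjusted p = 0.114). Evc, which overlaps Crmp1 by 3194 bases, was at 67.0 CPM in knockdown RNA and 77.8 CPM in control RNA (-0.22 ± 0.08, edgeR adjusted p = 0.144).

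Nes encodes nestin, the intermediate filament of neural progenitors (chromosome 3, 87971093 to 87980451). Nes RNA was at 34.2, 22.5 and 23.1 CPM in siKrr1 A, C and D and at 15.1, 15.4 and 13.6 CPM in siGFP, siNC and Lipo. Nes footprints were at 46.4, 29.2 and 33.8 CPM in siKrr1 A, C and D, against 19.1, 20.5 and 20.8 CPM in the controls. All knockdown libraries were above all controls, and siKrr1 A stood apart as the highest. The log2 difference was 0.85 ± 0.16 in RNA and 0.85 ± 0.15 in footprints (SE), and without siKrr1 A it was 0.63 and 0.64.

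Of the other intermediate filament genes 8 were tested in RNA and 9 in footprints, and synemin (Synm), a partner of other filaments, was the called one in each. Synm was at 10.7 CPM in knockdown RNA and 5.47 CPM in control RNA, a log2 fold change of 0.96 ± 0.23 (edgeR adjusted p = 0.0393, and 0.00447 to 0.154 with a library left out, the highest without siGFP), and 0.62 without siKrr1 A. Its footprints were at 1.2 ± 0.29 (edgeR adjusted p = 0.0379, and 0.00435 to 0.138, the highest without siGFP), and at 0.78 without siKrr1 A. The neuronal filament genes Ina (0.70 ± 0.20, edgeR adjusted p = 0.0717), Nefl (0.52 ± 0.22, 0.198) and Nefh (0.52 ± 0.18, 0.125) did not pass the test in RNA, nor did Vim (0.13 ± 0.13, 0.627) or the peripheral neuron filament gene Prph (-0.59 ± 0.16, 0.0608).

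Neurod1, a basic helix-loop-helix factor of neuronal and endocrine differentiation (chromosome 2, 79452637 to 79456636), was higher from a very low level. Neurod1 RNA was at 5.30, 3.56 and 6.07 CPM in siKrr1 A, C and D and at 2.28, 1.87 and 1.52 CPM in siGFP, siNC and Lipo. This corresponds to 165, 133 and 230 counts in the knockdown libraries and 87, 73 and 54 in the controls. Neurod1 footprints were at 14.9, 7.21 and 10.7 CPM in siKrr1 A, C and D, against 5.44, 4.29 and 3.88 CPM in the controls, and siKrr1 C was the closest to them. The log2 difference was 1.39 ± 0.24 in RNA and 1.27 ± 0.24 in footprints (SE). With a library left out it ran from 1.23 to 1.59 in RNA and from 0.99 to 1.5 in footprints. Its relatives were nearly absent: of 11 other proneural and bHLH genes, Olig1 was tested in RNA, where it was not called (edgeR adjusted p = 0.854), and none in footprints.

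Stmn2, a microtubule-destabilising protein of growth cones (chromosome 3, 8509527 to 8561604), differed little between the groups. Its RNA was at 289, 306 and 238 CPM in siKrr1 A, C and D and at 237, 253 and 264 CPM in siGFP, siNC and Lipo, so that siKrr1 D lay among the controls. Stmn2 footprints were at 431, 499 and 436 CPM in siKrr1 A, C and D, just above the 377, 414 and 398 CPM of the controls. The mean was 1.10 times the control in RNA and 1.15 times in footprints, with log2 differences of 0.14 ± 0.09 and 0.20 ± 0.07 (SE). Its relative Stmn3 fell in both assays: it was at 7.33 CPM in knockdown RNA and 17.1 CPM in control RNA, a log2 fold change of -1.22 ± 0.20 (edgeR adjusted p = 0.0107, and 0.00118 to 0.0494 with a library left out). In footprints Stmn3 was at -1.23 ± 0.23 (edgeR adjusted p = 0.0131, and 0.00247 to 0.072, the highest without siNC). Stmn1, the general stathmin of dividing cells, was at -0.22 ± 0.13 in RNA (edgeR adjusted p = 0.361).

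**Figure D2:**
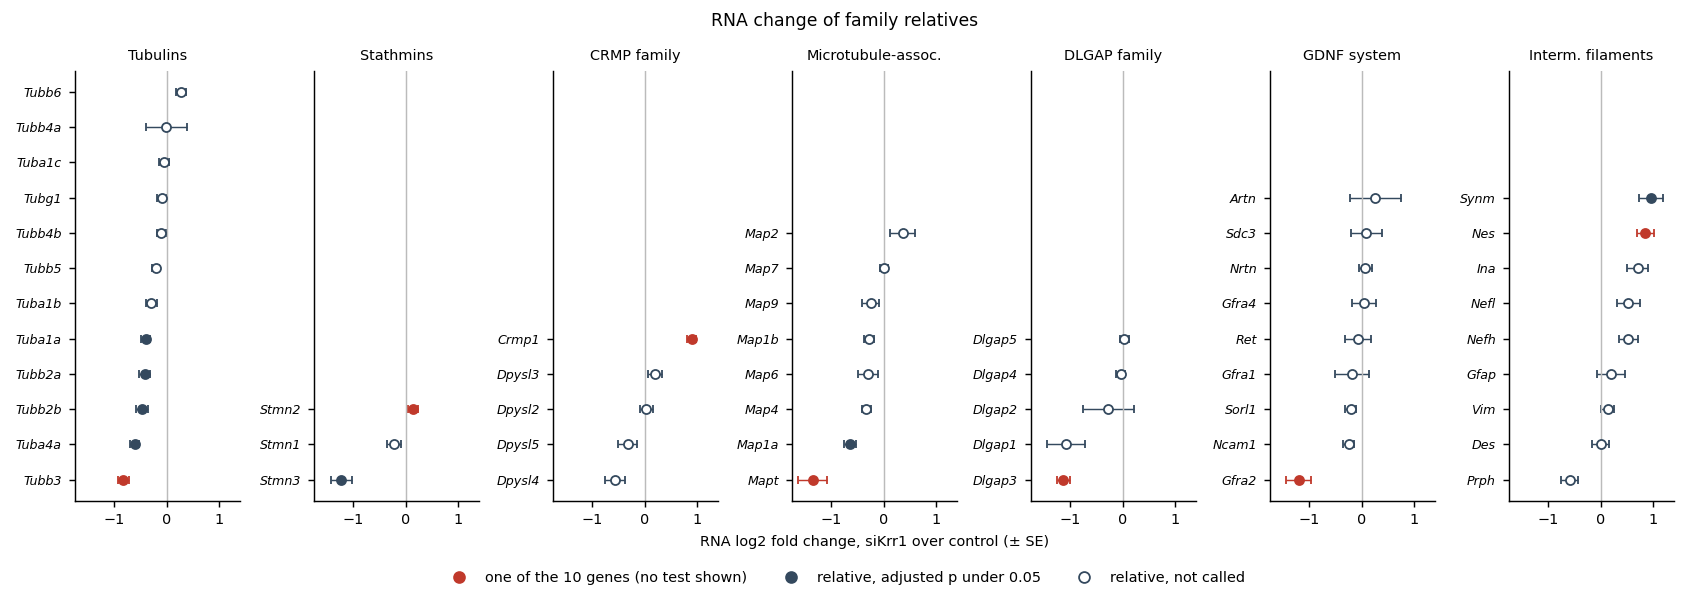
RNA log2 fold change of siKrr1 over control libraries (points, with SE as bars) for the tested members of 7 gene families, with the genes described here in red, relatives at an adjusted p under 0.05 as filled dark points and other relatives as open points. Tubb3, Mapt, Dlgap3 and Gfra2 are the lowest of their families and Crmp1 the highest of its own, while Stmn3 lies at -1.22 beside Stmn2 at 0.14. The genes in red were chosen by this difference, so their place in a family is no finding. Dlgap1 at -1.08 ± 0.36 lies close to Dlgap3 at -1.13 ± 0.12.

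RNA and footprints of the 10 genes changed by similar amounts. The difference between the footprint and the RNA change, which is a change of translational efficiency, lay between -0.45 ± 0.43 for Vax2 and 0.17 ± 0.45 for Mapt on the log2 scale (SE). With the lysate as a block the errors were smaller, and the values were -0.45 ± 0.21 for Vax2, -0.23 ± 0.10 for Dlgap3, 0.18 ± 0.13 for Mapt and 0.00 ± 0.09 for Nes. Over all 14236 genes edgeR called 0% higher and 0% lower for this difference. The unadjusted p was under 0.05 for 337 genes, DESeq2 called 2 higher and 0 lower, and with the lysate as a block edgeR called 5 higher and 1 lower, none of them among the 10.

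**Figure D3:**
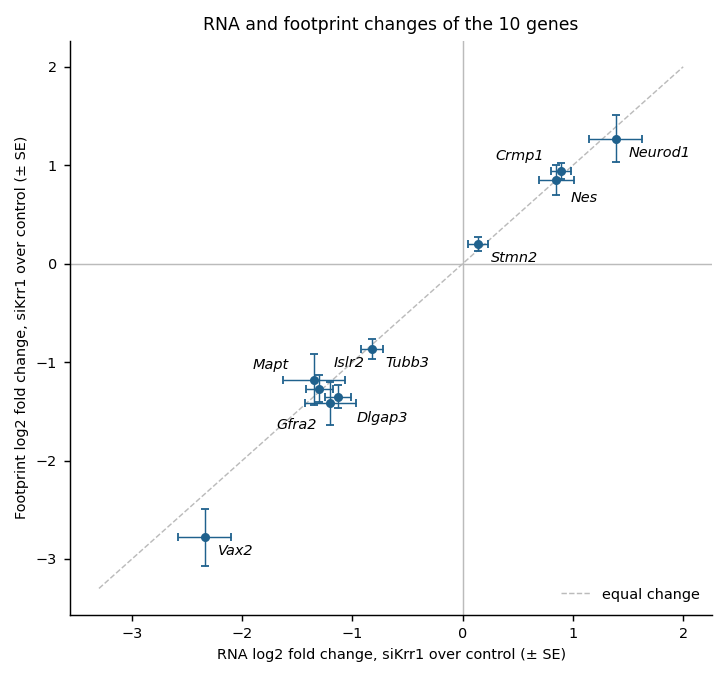
Footprint log2 fold change (vertical) against RNA log2 fold change (horizontal) of siKrr1 over control libraries for the 10 genes, with SE as bars and the line of equal change dashed. All 10 points lie near the line, from Vax2 at -2.34 and -2.78 to Neurod1 at 1.39 and 1.27.

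The number of footprints per RNA in control cells was not used to choose the genes, and it differed widely among them. The counts are per gene symbol, so coding and untranslated parts of a transcript cannot be told apart in them. What this adds to the differences between genes was not tested. Ratios were formed per lysate from CPM scaled over the 12 libraries, and the test compares footprints with RNA in the 3 control lysates, relative to the typical gene (median log2 ratio -0.02 over 13911 genes). It called 36.6% of all genes higher and 37.9% lower, so a call by itself is common. Of the 10 genes 6 were called higher, 1 lower and 3 not called. The test did not use the pairing of the assays within a lysate. With the lysate as a block 8 were called higher and 1 lower.

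Neurod1 had the highest ratio of the 10. It was 2.709, 2.647 and 2.941 in siGFP, siNC and Lipo, a fitted log2 ratio of 1.45 ± 0.20 (SE; edgeR adjusted p = 1.32e-05), above that of 92.8% of genes. Gfra2 followed with 2.577, 2.518 and 2.262 in the same lysates, a log2 ratio of 1.29 ± 0.13 (edgeR adjusted p = 8.53e-07). Stmn2 was at 0.86 ± 0.06, Nes at 0.66 ± 0.09 and Crmp1 at 0.58 ± 0.06, with edgeR adjusted p of 1.06e-08, 1.09e-05 and 1.95e-06. Tubb3 was close to the typical gene at 0.25 ± 0.06 (edgeR adjusted p = 0.00291). Vax2 at 0.29 ± 0.14, Islr2 at 0.18 ± 0.08 and Mapt at 0.14 ± 0.07 were not called (edgeR adjusted p = 0.0727, 0.0539 and 0.11). Dlgap3 was the low one, with ratios of 0.663, 0.772 and 0.749 in siGFP, siNC and Lipo and a log2 ratio of -0.46 ± 0.06 (edgeR adjusted p = 1.58e-05). The 7 called ratios were called with each control lysate left out. In siKrr1 A, C and D the ratio of Neurod1 was 3.232, 2.347 and 1.997 and that of Dlgap3 0.666, 0.645 and 0.558. The ratios of Vax2 (0.802, 1.055 and 0.754 in siKrr1 A, C and D, against 1.194, 1.285 and 1.159 in siGFP, siNC and Lipo) and of Gfra2 (1.927, 2.216 and 2.082 against 2.577, 2.518 and 2.262) did not overlap between the groups, and those of the other 8 genes did. Over 14149 genes the ratios were apart in the same way for 5.87% with the knockdown lysates lower and 6.69% with them higher, and the ratio is built from the values that chose the genes.

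**Figure D4:**
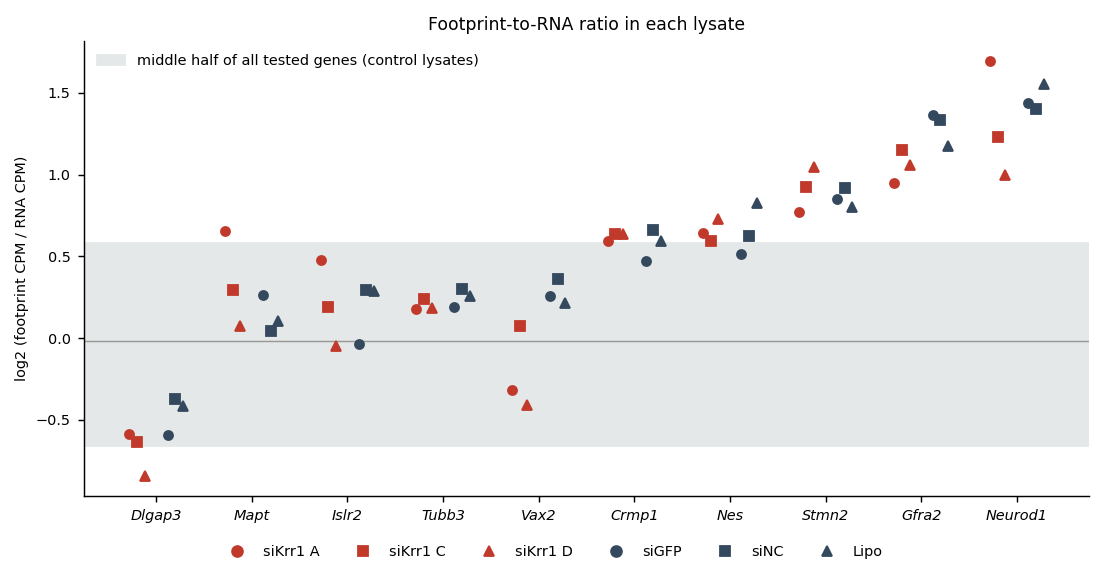
Log2 of footprint CPM over RNA CPM in each lysate for the 10 genes, ordered by the control value, with siKrr1 lysates in red left of the control lysates in dark blue. The grey band holds the middle of all tested genes in control lysates, from -0.66 to 0.58 (quartiles), and Neurod1, Gfra2 and Stmn2 lie above it in every lysate.

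The knockdown lysates did not depart from the controls by the same amount. Over the 9 genes other than Stmn2, siKrr1 C was the nearest to the control mean for 9 genes in RNA and 8 in footprints. The farthest was siKrr1 A for 6 genes and siKrr1 D for 3, in RNA and likewise in footprints. Krr1 itself, given above, was lowest in siKrr1 A and did not separate C from D in the same order in both assays. The genes of 1 lysate share that lysate, so these counts are a description.

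**Figure D5:**
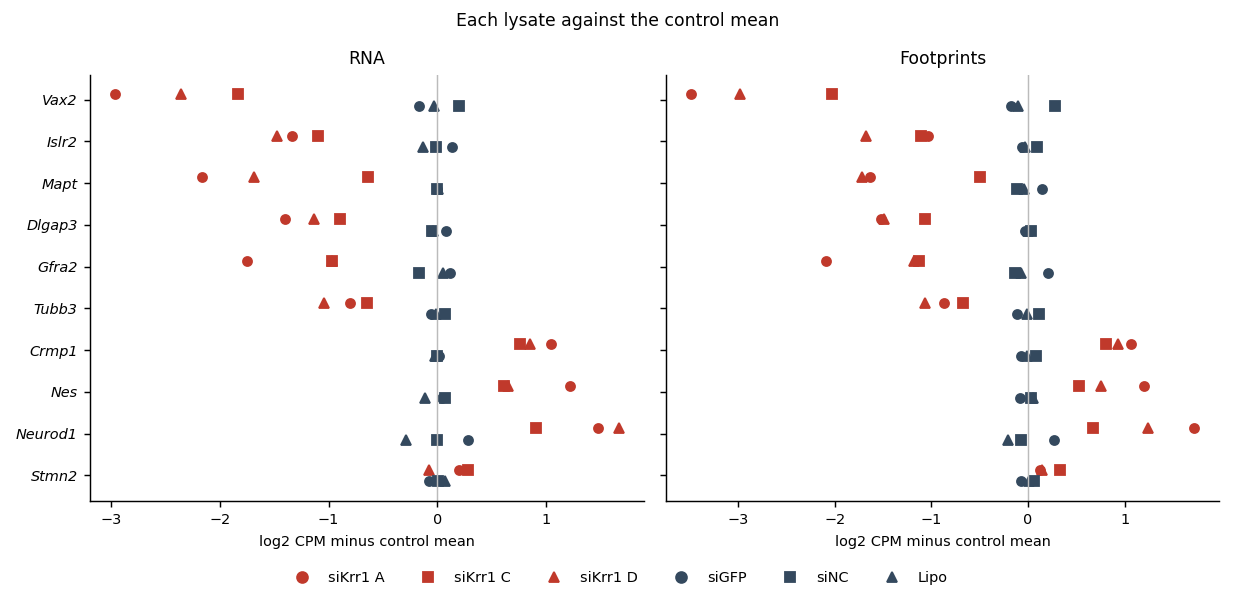
Log2 CPM (prior count 2) of each gene in each library minus the mean of the 3 control libraries of the same assay, with siKrr1 libraries in red just above the control libraries in dark blue. Red squares (siKrr1 C) lie nearest to 0 for most genes, and red circles (siKrr1 A) reach -2.96 in RNA and -3.49 in footprints for Vax2. In the RNA row of Gfra2 the square and triangle coincide.

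Broader lists of neural genes held calls in both directions. Over all 233 genes of the neural lists that are not among the 10, 172 were tested in each assay. Of these, 4.07% were higher and 5.23% lower in RNA (7 and 9 genes) and 5.81% higher and 7.56% lower in footprints (10 and 13 genes). The shares over all genes were 2.69% higher and 2.11% lower in RNA and 3.39% and 2.68% in footprints, and the difference between the lists and all genes was not tested. The list genes had medians of -0.01 in RNA and 0.01 in footprints on the log2 scale. Without siGFP, siNC or Lipo 0 were higher in RNA and 3, 5 and 4 lower, while leaving out siKrr1 A gave 4 higher and 6 lower, siKrr1 C 20 and 14, and siKrr1 D 3 and 7. In footprints the counts with a library left out ran from 0 higher and 5 lower without siGFP and 0 and 3 without Lipo to 20 and 14 without siKrr1 C. These lists were written with results of these data known.

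Among regulators of neural progenitors 28 were tested in RNA, of which 3 rose and 1 fell, and 27 in footprints, of which 4 rose and 2 fell. These stand beside 2.69% higher and 2.11% lower over all genes in RNA and 3.39% and 2.68% in footprints. Hes1, a Notch target that holds progenitors undifferentiated, was at 48.4 CPM in knockdown RNA and 78.9 CPM in control RNA, a log2 fold change of -0.70 ± 0.09 (edgeR adjusted p = 0.00352, and 0.0015 to 0.0355 with a library left out). Hes1 footprints were at -0.75 ± 0.07 (edgeR adjusted p = 0.000818). The receptor gene Notch3 was at 44.5 CPM in knockdown RNA and 20.5 CPM in control RNA, or 1.11 ± 0.23 (edgeR adjusted p = 0.0225, and 0.00857 to 0.0886 with a library left out, the highest without siGFP), and leaving out siKrr1 A it was 0.71. Meis1 (1.33 ± 0.28) and Nr6a1 (0.38 ± 0.07) also rose in RNA, with edgeR adjusted p of up to 0.118 without siNC and 0.0977 without Lipo, from lowest values of 0.0216 and 0.00972. Meis1 was at 1.88 CPM in knockdown RNA and 0.751 CPM in control RNA. Neither gene was called in footprints (edgeR adjusted p = 0.281 for Meis1 and 0.0686 for Nr6a1). In footprints Notch3 (1.28 ± 0.21), the N-cadherin gene Cdh2 (0.83 ± 0.17) and Sox4 (0.61 ± 0.13) rose, and without Lipo their edgeR adjusted p was 0.0589, 0.113 and 0.113.

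Among genes of axon growth and neuronal differentiation 30 were tested in each assay, of which 2 rose and 1 fell in RNA and 3 rose and 3 fell in footprints, against the same shares over all genes. Cntn2, an axonal adhesion molecule, was at 2.24 CPM in knockdown RNA and 4.93 CPM in control RNA, or -1.13 ± 0.21 (edgeR adjusted p = 0.0161, and 0.00489 to 0.0891 with a library left out, the highest without siGFP), and at -1.24 ± 0.21 in footprints (edgeR adjusted p = 0.00787, and 0.00313 to 0.0453). The semaphorin receptor gene Nrp2 was at 0.51 ± 0.12 in RNA and 0.58 ± 0.12 in footprints (edgeR adjusted p = 0.0365 and 0.0208), up to 0.149 without siGFP and 0.0986 without Lipo. Sema3e was at 0.95 ± 0.21 in RNA (edgeR adjusted p = 0.0293, and up to 0.118 without siGFP). In footprints the semaphorin gene Sema6a stood at 2.28 ± 0.46 and the plexin gene Plxna1 at 0.39 ± 0.07, both higher, and Sema4a at -0.59 ± 0.11, with edgeR adjusted p of 0.0165, 0.0107 and 0.0119. Sema6a footprints were at 3.72 ± 2.61 CPM in knockdown cells and 0.748 ± 0.0983 CPM in control cells (SD, n = 3 each). Sema6a RNA, at 0.915 CPM in knockdown cells and 0.267 CPM in control cells, was not called (edgeR adjusted p = 0.101). Without siKrr1 A the log2 fold change of Sema6a footprints was 1.55. The adjusted p reached 0.086 without siGFP for Sema6a and 0.0672 and 0.0724 without Lipo for the other two.

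The repressor gene Rest was at 279 CPM in knockdown RNA and 308 CPM in control RNA and was not called (-0.14 ± 0.07, edgeR adjusted p = 0.243), nor was it in footprints (-0.08 ± 0.06, 0.502). Of 18 genes for REST and its cofactors, the phosphatase gene Ctdsp2 was lower in RNA (-0.49 ± 0.10, edgeR adjusted p = 0.0209, and up to 0.105 without siGFP) and Cdyl was higher in footprints (0.48 ± 0.11, edgeR adjusted p = 0.0308, and up to 0.157 without Lipo). Of 22 known REST targets other than Stmn2 and Tubb3, Vgf was higher and Stmn3 lower in RNA, with a median of 0.05, and Stmn3 and Cacna1a were lower in footprints, with a median of 0.00. Vgf was at 1.55 ± 0.39 (edgeR adjusted p = 0.0464, and up to 0.171 without Lipo), and Cacna1a footprints at -0.30 ± 0.07 (edgeR adjusted p = 0.0315, and up to 0.157 without Lipo). The level of Vgf was low, at 1.5 CPM in knockdown RNA and 0.504 CPM in control RNA. Vgf footprints were not called (1.17 ± 0.36, edgeR adjusted p = 0.0801).

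Marker lists of other cell types were set beside these genes because fewer cells of a type and less RNA per cell cannot be told apart in bulk samples. The 10 neuron markers summed to 43.9 to 62.3 CPM in knockdown RNA and 43.5 to 44.7 CPM in control RNA, with none called, and the 8 neural progenitor markers to 9.77 to 10.3 CPM and 9.99 to 10.4 CPM, with none called. Glial markers summed to 9.22 to 15.0 CPM in knockdown RNA and 9.74 to 11.8 CPM in control RNA, with Aqp4 at 0, and fibroblast markers to 2.67 to 4.62 CPM and 4.30 to 5.10 CPM, with Col3a1, Postn and Lum at 0. The endoderm list summed to 1.25 to 1.58 CPM in knockdown RNA and 1.56 to 2.10 CPM in control RNA, and the trophoblast list to 16.9 to 22.5 CPM and 18.3 to 21.1 CPM, with Krt7 called higher. Krt7 was near the floor, at 0.658 CPM in knockdown RNA and 0.106 CPM in control RNA. It had at most 30 counts in an RNA library and was not tested in footprints. The 5 mesoderm markers summed to 7.75 to 15.4 CPM in knockdown RNA and 4.37 to 4.91 CPM in control RNA, with Kdr called higher, and 3 of the 8 stem cell markers (Nanog, Zfp42 and Esrrb) were called lower. Nanog kept its call with each library left out, while leaving out Lipo gave an edgeR adjusted p of 0.111 for Zfp42, 0.105 for Esrrb, 0.0895 for Krt7 and 0.0751 for Kdr. In footprints the neuron list summed to 89.2 to 113 CPM in knockdown cells and 84.3 to 89.4 CPM in control cells, the mesoderm list to 9.68 to 22.7 CPM and 4.72 to 7.98 CPM, with Kdr called higher, and the trophoblast list to 32.2 to 44.7 CPM and 27.4 to 35.2 CPM. Of the trophoblast markers Gata3 was higher (1.87, edgeR adjusted p = 0.0189, and up to 0.0998 without Lipo) and Eomes lower (-0.57, edgeR adjusted p = 0.034, and up to 0.151 without siNC), and Nanog and Esrrb were lower among the stem cell markers. Gata3 footprints were at 1.91 CPM in knockdown cells and 0.512 CPM in control cells. Gata3 RNA was at 0.132 CPM in knockdown cells and 0.0717 CPM in control cells and was not tested. The part of these markers in the changes of the 10 genes was not tested.

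Other genes with a like pattern were sought among 8882 candidates, for which a level of at least 5 CPM was one of the conditions. The measure was the root mean square difference of log2 CPM minus the control mean over the 12 libraries. Nearest to Stmn2 was Sirt7 (0.055), to Nes the Notch ligand gene Jag2 (0.0838), to Tubb3 Bdh2 (0.0923), to Crmp1 Enpp3 (0.106), to Dlgap3 Atp2a3 (0.118), to Neurod1 the claudin gene Cldn6 (0.15), to Islr2 the galectin gene Lgals3 (0.177), to Mapt the cyclin gene Ccnd2 (0.177) and to Gfra2 Lrrc34 (0.183). Vax2 had no close match among these candidates, the nearest being Slc11a1 at 0.832. The measure depends on the size of a change, and Vax2 ranked 3 from the bottom in RNA and 1 in footprints. Few genes could therefore lie near it, and the small distance for Stmn2 goes with its small change. Slc11a1 RNA changed by -1.48 on the log2 scale, where Vax2 RNA changed by -2.34. Krr1 and Vax2os, which were also lower in knockdown cells, were not among the candidates.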

How the data were processed

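R1 cells were profiled by RNA-seq and ribosome profiling (48 h after transfection, 3 libraries per group and assay). The deposited files give, for each gene symbol, the raw count of reads with a unique alignment. The submitters' processing notes name STAR, HTSeq and the build mm10. Their versions, the annotation and the strand setting are not stated in the labels or files. Reads on no gene (31.2% to 33.4% of unique RNA alignments and 57.5% to 63.3% of unique footprint alignments) and ambiguous reads were kept out of library sizes. Knockdown columns carry letters and GEO titles numbers, so they were assigned to groups only. No pair of libraries within a group was a duplicate (chi-square per degree of freedom of 3.88 to 27.2).

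Genes passing filterByExpr were tested by edgeR's quasi-likelihood F test after TMM scaling, with Benjamini-Hochberg adjustment over all tested genes (R 4.3.3 with edgeR 4.0.16 and limma 3.58.1) and calls at an adjusted p under 0.05. Standard errors come from the F statistic. Levels are CPM by edgeR's cpm function on TMM-scaled totals. Translational efficiency was fitted as an assay-by-condition interaction and the control ratio as a difference between assays, both without the lysate as a block. Each lysate was divided between the assays, per the labels, and deviations from group means correlated within a lysate with r from 0.248 to 0.693 over 7089 genes, so the assays are paired. The scripts were tested on simulated data. Alternatives were DESeq2 1.42.0, its size factors, no filter, the block and each library left out. Named genes are the 10, relatives on family lists, up to 4 called genes per other list and assay, the nearest pattern per gene, cell type markers and, chosen later, genes overlapping the 10. The genes and lists were chosen with earlier results of these data known. Of 23420 symbols, 23284 matched the RefSeq table, and per-length levels were not computed.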

Additional observations from a re-analysis of the deposited data

How the results depend on the processing

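The log2 changes of the 10 genes kept their direction under every alternative run in RNA and footprints, and 1 of these values moved by more than the replicate spread, Mapt footprints without siKrr1 C (-1.69). Counts over all genes depended on the settings. Without the low-count filter 582 were higher and 477 lower in RNA and 784 and 616 in footprints, and DESeq2 called 662 higher and 533 lower in RNA. With a library left out the RNA counts ran from 63 to 759 higher and from 51 to 539 lower, and the footprint counts from 67 to 791 higher and from 64 to 546 lower. For translational efficiency 2 were higher without the filter, 2 with DESeq2, 5 higher and 1 lower with the replicate block, and 0 to 1 higher with a lysate left out. In the control footprint-to-RNA ratio the paired fit with the replicate block also called Vax2 (0.28, edgeR adjusted p = 0.0131) and Islr2 (0.19, edgeR adjusted p = 0.0232), and it changed no other call. The ratio of Vax2 was -0.16 in the siKrr1 lysates, where Tubb3 was no longer called (0.20, edgeR adjusted p = 0.207); the cause was not tested. Islr2 was also called with DESeq2, with its size factors and without siGFP. Depth limits Vax2, Gfra2 and Neurod1, whose libraries held as few as 19, 41 and 54 counts, which cover counting error only.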
